A study of Mus musculus with 72 samples.

Results

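The 9 genes followed here mark the projection neurons of the striatum, and were measured through experimental stroke in mouse brain: Pde10a, Pde1b, Ppp1r1b, Rgs9, Rarb, Rxrg, Bcl11b, Foxp1 and Mme. They were chosen by name as genes shared by the direct and indirect pathway neurons, and each symbol matched 1 Ensembl identifier, giving 9 of the 35275 genes in the count table. All 9 passed the filter on low counts, with 21 to 29320 reads in a library for a gene.

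Striatal projection neurons are inhibitory GABA neurons that receive glutamate input from cortex and thalamus and dopamine input from the midbrain. Dopamine raises cyclic AMP in direct pathway neurons, which carry D1 receptors, and lowers it in indirect pathway neurons, which carry D2 receptors, while phosphodiesterases end the signal. Retinoid receptors and the zinc-finger and forkhead factors among the 9 genes help to set up and maintain the identity of these neurons, and the striatum lies within the territory of the middle cerebral artery.

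All libraries came from C57BL/6 mice aged 7 months, and the labels describe the tissue as brain and the sampled piece as a mid-cerebral coronal section, ipsilateral to the occlusion, with no striatal dissection. The feeding regimens were every-other-day fasting in a loop of 24 h without food and 24 h with food (EOD), daily fasting for 12 h (IF12), daily fasting for 16 h (IF16), and food at all times (ad libitum, AL). Daily fasting lasted 4 months before surgery. The stages were sham, 1 h of middle cerebral artery occlusion without reperfusion (ischemia alone), and the same occlusion followed by 3, 12, 24 or 72 h of reperfusion, and crossing 6 stages with 4 regimens gave 24 groups of 3 libraries. Nothing in the labels states that replicate libraries are separate animals. The p-values therefore measure only the spread among libraries, part of which may be technical.

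Library totals ran from 16735707 to 24763161 counts, and levels are given as CPM, counts scaled to a fixed depth, after scaling by the trimmed mean of M values. No 2 libraries of a group agreed within sampling noise. Marker genes of both pathways were detected: in sham libraries the 7 direct pathway markers summed to 115 to 407 CPM and the 5 indirect pathway markers to 233 to 962 CPM, and none of these markers averaged under 1 CPM. Markers of other regions were present too, at 366 to 565 CPM for 14 hippocampal genes, 199.7 to 936 CPM for 14 thalamic genes and 2146 to 4001 CPM for 14 genes of cortical excitatory neurons. In a bulk sample, fewer cells of a type and less RNA per cell cannot be told apart.

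The question of the main comparison was how the 9 genes changed with stage when the 4 regimens were averaged, with 12 libraries a stage. All 9 were lower at 12, 24 and 72 h of reperfusion than in sham, 7 of 9 were lower at 3 h, and none passed the test after ischemia alone. The median log2 fold change of the 9 genes against sham was -0.36 after ischemia alone, -0.83 at 3 h, -0.94 at 12 h, -1.99 at 24 h and -1.20 at 72 h. The median over all 17268 genes tested was between -0.011 and 0.006 at these stages. The share of all genes called lower by the same rule, an edgeR quasi-likelihood adjusted p under 0.05, was 0.0232% after ischemia alone, 11.1% at 3 h, 9.82% at 12 h, 24.3% at 24 h and 11.0% at 72 h. The 5 comparisons share the sham libraries.

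**Figure D1:**
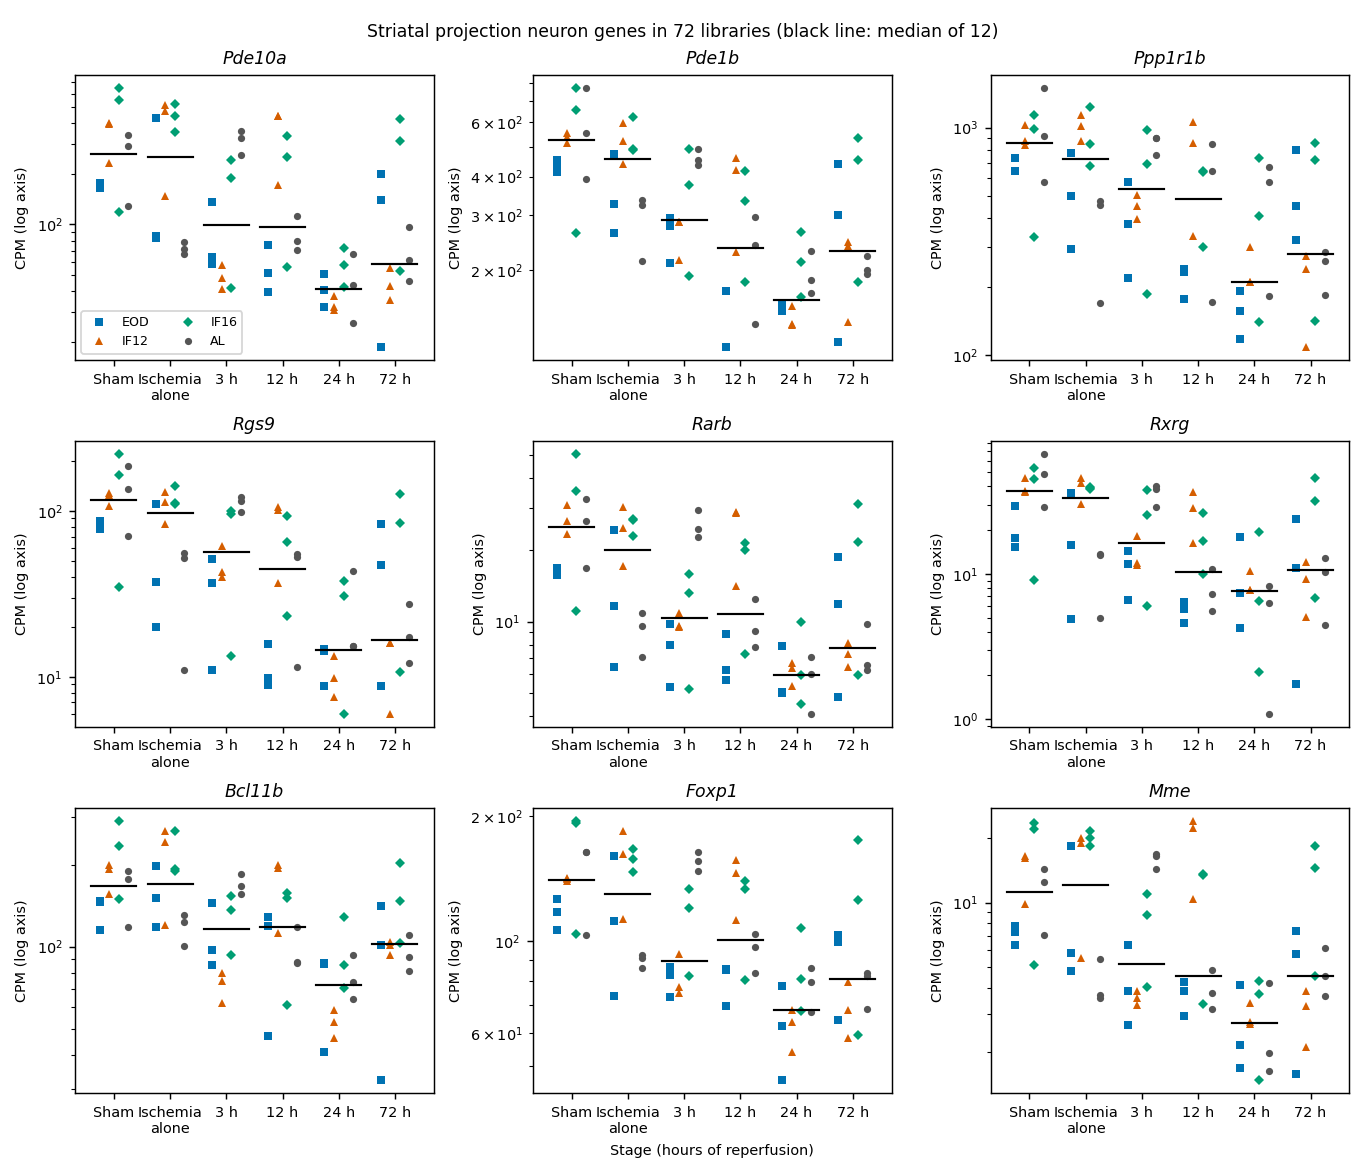
CPM of each of the 9 genes on a log axis in the 72 libraries, by stage from sham to 72 h of reperfusion, with a symbol per library coloured by regimen and a black line at the median of 12 libraries. For Pde10a, Rarb and Mme, all 12 libraries at 24 h lie below the lowest sham library, while at 3, 12 and 72 h the libraries of a stage spread over a wide range.

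The phosphodiesterases come first among the signalling genes. Pde10a hydrolyses cyclic AMP and cyclic GMP and is strongly enriched in striatal projection neurons. It lies on chromosome 17, from 8525372 to 8986648 on the plus strand of GRCm38. At 24 h its lowest, median and highest library had 25.8, 41.6 and 72.0 CPM, against 118, 263 and 652 CPM in sham. All 12 libraries at 24 h were below the lowest sham library, and the log2 fold change was -2.71 ± 0.33 (SE, adjusted p = 6.57e-09). At 3 h the 3 values were 41.4, 99.7 and 362 CPM, and at 72 h they were 18.7, 58.5 and 424 CPM. The groups overlapped with sham at both times, with 6 and 8 of 12 libraries below the lowest sham library, and the log2 fold changes were -1.24 ± 0.31 (adjusted p = 0.003) and -1.53 ± 0.32 (adjusted p = 0.000213).

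Pde1b, a phosphodiesterase switched on by calcium and calmodulin, lies on chromosome 15 from 103503034 to 103530052 on the plus strand. Its lowest, median and highest library had 133, 160.0 and 264 CPM at 24 h, against 262, 526 and 776 CPM in sham. In 11 of 12 libraries at 24 h it was below the lowest sham library, and the log2 fold change was -1.61 ± 0.18 (adjusted p = 9.41e-10). Per length, Pde1b was the second most abundant of the 9 genes in sham, at a median of 178 FPKM (fragments per kilobase of transcript, scaled to depth), and Pde10a was at 71.6 FPKM.

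Ppp1r1b encodes the dopamine- and cyclic AMP-regulated phosphoprotein that inhibits protein phosphatase once protein kinase A has phosphorylated it. It lies on chromosome 11 from 98348404 to 98357796 on the plus strand and had the highest level per length in sham, at a median of 718 FPKM. Its lowest, median and highest library had 117.5, 209 and 733 CPM at 24 h, against 331, 856 and 1500 CPM in sham. The 2 stages overlapped, with 8 of 12 libraries at 24 h below the lowest sham library, and the log2 fold change was -1.52 ± 0.28 (adjusted p = 1.64e-05). At 3 h Ppp1r1b did not pass the test, at -0.61 ± 0.28 (adjusted p = 0.107).

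Rgs9 speeds the switching off of G proteins downstream of dopamine receptors. It lies on chromosome 11 from 109225355 to 109298129 on the minus strand. At 24 h its lowest, median and highest library had 6.00, 14.4 and 43.3 CPM, against 34.9, 116 and 219 CPM in sham. It had the most negative fitted change of the 9 genes, -2.79 ± 0.38 (adjusted p = 6.25e-08), with 10 of 12 libraries below the lowest sham library. Its call at 3 h, -0.97 ± 0.35 (adjusted p = 0.0419), was lost without any 1 of 16 libraries when each of the 24 was left out in turn.

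The retinoid receptors are a pair that can bind DNA together. Rarb, retinoic acid receptor beta, lies on chromosome 14 from 16430839 to 16819156 on the minus strand, and Rxrg, retinoid X receptor gamma, on chromosome 1 from 167598384 to 167639623 on the plus strand. Rarb is itself a textbook target of retinoic acid through a direct repeat in a promoter, so the promoters were searched for this repeat in its 4 spelled forms, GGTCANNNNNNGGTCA, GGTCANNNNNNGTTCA, GTTCANNNNNNGGTCA and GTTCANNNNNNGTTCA, on both strands. RefSeq promoter windows on GRCm38.p6, of 300 bases running from 250 before to 50 after a start, were matched for 8 of the 9 genes, with 16 windows. The repeat was found in 81 of all 32851 windows, 0.247%, and in 1 of the 16, that of Rarb at chr14:16575427-16575726 on the minus strand, where it begins 52 bases upstream of the start. The window is shown with the repeat in capitals.

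Rarb promoter: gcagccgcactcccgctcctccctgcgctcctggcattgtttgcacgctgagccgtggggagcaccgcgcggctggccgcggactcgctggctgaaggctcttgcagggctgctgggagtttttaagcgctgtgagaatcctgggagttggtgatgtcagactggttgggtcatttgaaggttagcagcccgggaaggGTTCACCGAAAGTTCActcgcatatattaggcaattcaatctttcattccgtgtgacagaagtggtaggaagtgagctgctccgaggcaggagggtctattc

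The cyclic AMP response element TGACGTCA was in 588 of the 32851 windows, 1.79%, and in none of the 16. A match describes these letters only, and binding was not measured here.

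Rarb had 4.10, 5.98 and 9.97 CPM in its lowest, median and highest library at 24 h, against 11.1, 24.9 and 50.4 CPM in sham. All 12 libraries at 24 h were below the lowest sham library, and the log2 fold change was -1.99 ± 0.23 (adjusted p = 2.17e-09). After ischemia alone Rarb was at -0.54 ± 0.22, with an edgeR adjusted p of 0.70. It was the only 1 of the 9 genes with an unadjusted p under 0.05 at that stage, beside 1017 of all 17268 genes. Neither edgeR nor DESeq2 called any of the 9, and DESeq2 called 53 of all genes. Rarb shares 1793 of its 5265 annotated exonic bases with Top2b on the opposite strand, and since the counting is not stated to use strand, reads of the 2 genes cannot be told apart there. Top2b had log2 fold changes of -0.08 to 0.13 at the 5 stages and passed the test at none of them.

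Rxrg had 1.09, 7.57 and 19.5 CPM in its lowest, median and highest library at 24 h, against 9.04, 37.0 and 66.6 CPM in sham. In 9 of 12 libraries it was below the lowest sham library, and the log2 fold change was -2.10 ± 0.35 (adjusted p = 2.96e-06). Its 3 h value missed the threshold, at -0.88 ± 0.34 (adjusted p = 0.052). Of 15 other genes of the retinoid pathway, 8 rose and 1 fell at 24 h, with a median of 0.24, and 8 rose and none fell at 72 h, with a median of 0.44. Of all 17268 genes tested, 4393 rose at 24 h and 2784 at 72 h. Of 8 markers of mural cells and fibroblasts, 4 rose and 1 fell at 24 h (median 0.62), and 6 rose and none fell at 72 h (median 1.67). Their part in the retinoid values was not tested. The retinoic acid-forming enzymes Aldh1a2 (2.11 ± 0.30) and Aldh1a3 (1.98 ± 0.35) and the retinol uptake receptor Stra6 (1.75 ± 0.24) rose most at 24 h by edgeR. Stra6 averaged 29.2 CPM at 24 h, against 8.65 CPM in sham, and Aldh1a2 23.0 against 5.21 CPM. Aldh1a3 was at a low level, with 2.23 CPM at 24 h against 0.528 CPM in sham.

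Bcl11b and Foxp1 are transcription factors of striatal projection neurons that are also transcribed in neurons of other regions, such as the cortex and the hippocampus. Bcl11b lies on chromosome 12 from 107910403 to 108003602 and Foxp1 on chromosome 6 from 98925338 to 99522721, both on the minus strand. Bcl11b had 40.9, 72.5 and 128 CPM in its lowest, median and highest library at 24 h, against 115, 166 and 289 CPM in sham. Foxp1 had 46.1, 68.0 and 108 CPM at 24 h, against 103, 139.9 and 194 CPM in sham. For each, 11 of 12 libraries at 24 h were below the lowest sham library. The changes were the smallest of the 9 genes, -1.26 ± 0.18 for Bcl11b (adjusted p = 1.28e-07) and -0.98 ± 0.13 for Foxp1 (adjusted p = 2.46e-08). After ischemia alone Bcl11b was at -0.03 ± 0.17, a value whose sign changed without any 1 of 4 libraries.

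Among 14 other striatal transcription factors, 10 fell and none rose at 24 h, with a median of -0.81. The most lowered were Isl1, a factor of direct pathway and cholinergic neurons (-1.79 ± 0.38), Meis2, a homeobox factor (-1.49 ± 0.18), and Foxp2, a relative of Foxp1 (-1.36 ± 0.20).

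Mme encodes neprilysin, a membrane peptidase that breaks down neuropeptides such as the enkephalins. It lies on chromosome 3 from 63241537 to 63386030 on the plus strand and had the lowest level per length of the 9 genes in sham, at a median of 2.64 FPKM. Mme had 1.47, 2.74 and 4.30 CPM in its lowest, median and highest library at 24 h, against 5.12, 11.2 and 23.4 CPM in sham. The 2 stages did not overlap, and the log2 fold change was -2.06 ± 0.27 (adjusted p = 3.84e-08). At 12 h Mme was at -0.70 ± 0.26 (adjusted p = 0.0444), a call lost without any 1 of 15 of the 24 libraries.

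**Figure D2:**
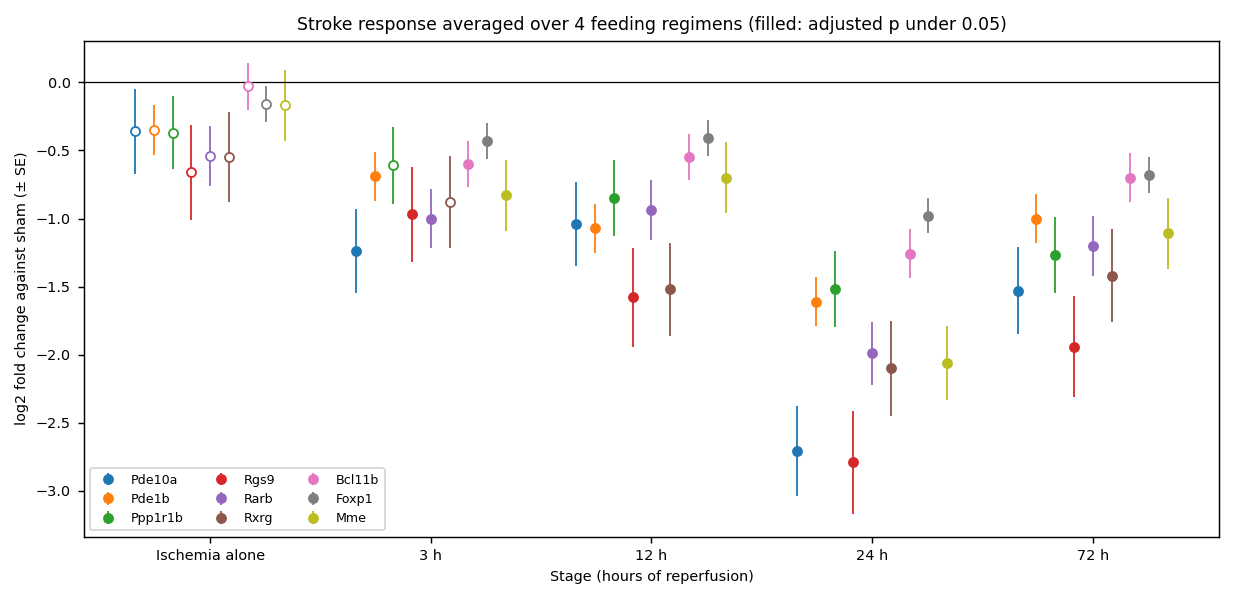
Log2 fold change against sham with its standard error for the 9 genes at the 5 stages, averaged over the 4 regimens (12 libraries a stage, filled where the edgeR adjusted p is under 0.05). Values lie between -0.66 and -0.03 after ischemia alone and between -2.79 and -0.98 at 24 h, where all 9 are filled.

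The rest of the dopamine and cyclic AMP pathway moved in the same direction in most of its genes. Of 23 genes in that list, 19 fell and 1 rose at 24 h, with a median of -1, and 17 fell and none rose at 72 h, with a median of -0.56. The most lowered were receptors of indirect pathway neurons: the adenosine receptor Adora2a (-3.55 ± 0.46), the orphan receptor Gpr6 (-3.49 ± 0.42) and the dopamine receptor Drd2 (-3.31 ± 0.47). Adora2a averaged 13.1 CPM at 24 h, against 141 CPM in sham.

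Markers that belong to a single pathway changed on both sides. The lists share genes, so their counts are not separate. Drd1, Chrm4, Drd2, Adora2a and Gpr6 are also in the dopamine and cyclic AMP list, and Isl1 and Sp9 among the striatal transcription factors. Of 7 direct pathway markers, 6 fell at 24 h, with a median of -1.79, and of 5 indirect pathway markers all 5 fell, with a median of -3.31. Among direct pathway markers the most lowered were Slc35d3, a transporter needed for D1 receptor trafficking (-2.89 ± 0.39), Drd1, the D1 receptor (-2.48 ± 0.34), and Tac1, the substance P precursor (-2.20 ± 0.35). The median of the 9 shared genes, -1.99, lay between those of the 2 lists, and no difference between lists was tested.

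Other cell type lists give the setting of these changes at 24 h. Of 10 striatal interneuron markers 5 fell and none rose (median -0.29), the most lowered being the cholinergic genes Slc5a7 (-2.52 ± 0.49), Lhx8 (-2.17 ± 0.56) and Chat (-2.00 ± 0.58). Of 12 general neuron genes 9 fell (median -0.38), with Snap25, a synaptic vesicle fusion gene, at -0.56 ± 0.12. Of 14 markers of cortical excitatory neurons 3 rose and 7 fell (median -0.20). Of 14 hippocampal markers 1 rose and 1 fell (median 0.27), and of 14 thalamic markers 2 rose and none fell (median 0.05). All 10 reactive astrocyte genes rose (median 3.73), as did all 10 genes of activated myeloid cells (median 3.67). The part of a change in tissue makeup in the values of the 9 genes was not tested.

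The 9 genes varied together across libraries. Over the 36 pairs of genes, Pearson's r of log2 CPM across the 72 libraries ran from 0.61 for Ppp1r1b with Bcl11b to 0.966 for Pde10a with Mme, with a median of 0.87. After the group means were taken out, the median was 0.737, and the pair Ppp1r1b and Bcl11b was lowest at 0.299. These values are a description, since all genes are read from the same libraries and share their depth and stage. Of the genes outside the 9, those most like their mean pattern over the 72 libraries included Adcy5 (r = 0.983), the striatal adenylyl cyclase, Drd1 (0.969), Meis2 (0.964), Rasd2 (0.964), Gng7 (0.964), Gpr6 (0.955), Rasgrp2 (0.95), Sh3rf2 (0.947) and Slc35d3 (0.946). Adcy5 kept r = 0.963 within groups.

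The genes did not keep fixed proportions. The 3 highest values of Ppp1r1b at 24 h were singled out after they were seen. It had 668 and 574 CPM in AL replicates 2 and 3 and 733 CPM in IF16 replicate 1, where Pde10a had 43.9, 25.8 and 42.3 CPM and Rxrg had 6.32, 1.09 and 2.10 CPM. In the same libraries Rgs9 had 43.3, 15.2 and 37.5 CPM and Foxp1 had 86.1, 79.6 and 108 CPM, including the highest values of both genes at 24 h. These 3 libraries also had the highest cortical marker sums of the stage, at 4082, 4339 and 4323 CPM, and thalamic sums of 255, 223 and 223 CPM, with no test of their part in the values. The ratio of Pde10a to Ppp1r1b had a median of 0.162 at 24 h (0.045 to 0.431) and of 0.315 in sham (0.195 to 0.576). The ratio of Pde10a to Bcl11b had a median of 0.595 at 24 h (0.402 to 0.84) and of 1.52 in sham (0.789 to 2.35), and the ranges of the 2 stages overlapped slightly.

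The response within each regimen was then compared with that regimen's own sham libraries, in fits of 18 libraries. Of 45 gene-by-stage tests a regimen, 4 were called lower in EOD, 27 in IF12, 5 in IF16 and 22 in AL. In IF12 all 9 genes were lower at 3, 24 and 72 h and none at 12 h, and in AL 5 genes were lower at 12 h, 8 at 24 h and all 9 at 72 h. In EOD 4 genes were lower and in IF16 5, all at 24 h.

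In EOD, Pde10a had 172, 176 and 164 CPM in sham, 85.8, 429 and 83.1 CPM after ischemia alone, 135, 64.1 and 57.8 CPM at 3 h, 51.4, 75.2 and 39.5 CPM at 12 h, 32.2, 50.6 and 40.8 CPM at 24 h and 199, 18.7 and 139 CPM at 72 h. Sham was tight, and the libraries after ischemia alone and at 72 h were split, with some above and some far below sham. At 24 h the called genes were Pde1b (-1.53), Ppp1r1b (-2.12), Rgs9 (-2.70) and Foxp1 (-0.91), with adjusted p of 0.0107 to 0.0441, beside 3.50% of all genes called lower. These counts rest on few libraries: without the sham replicate 3 or without the 24 h replicate 3 no gene was called in EOD, and without sham replicates 1 or 2 or the 24 h replicate 1 only 1 was. The background share was 0% after ischemia alone, 0.0244% at 3 h, 0.0548% at 12 h and 0% at 72 h, and edgeR called none of the 9 at those stages. At an unadjusted p under 0.05 it had 0, 3, 7 and 0 of the 9, and DESeq2 called 0, 0, 3 and 0. Of all 16415 genes tested, 366, 959, 2892 and 1880 had such a p by edgeR. In either direction, DESeq2 called 4, 83, 778 and 237 of all genes.

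In IF12, Pde10a had 234, 399 and 397 CPM in sham, 515, 148 and 473 CPM after ischemia alone, 57.6, 48.1 and 41.4 CPM at 3 h, 171, 439.5 and 444 CPM at 12 h, 30.9, 37.5 and 32.5 CPM at 24 h and 55.5, 35.8 and 42.9 CPM at 72 h. The libraries at 3, 24 and 72 h were all below the lowest sham library, and 2 of the 3 at 12 h were above the highest. At 24 h the log2 fold changes ran from -3.54 for Rgs9 to -1.17 for Foxp1, with the share of all genes called lower at 20.4%. At 3 h they ran from -2.81 for Pde10a to -0.79 for Foxp1, beside 16.0% of all genes, and at 72 h from -3.25 for Rgs9 to -0.89 for Bcl11b, beside 10.8%. At 12 h they lay between -0.56 and 0.41 and after ischemia alone between -0.18 and 0.18. At those stages edgeR called 0.0122% and 0.00609% of all genes lower. It had 1 and 0 of the 9 at an unadjusted p under 0.05, beside 1308 and 779 of all 16426 genes. DESeq2 called none of the 9, and 100 and 57 of all genes in either direction. The count of 27 stayed between 25 and 27 when each library was left out, with comparisons that did not use it kept from the full fit.

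In IF16, Pde10a had 118, 549 and 652 CPM in sham, 518, 440 and 353.5 CPM after ischemia alone, 41.6, 189 and 241 CPM at 3 h, 335, 55.9 and 252 CPM at 12 h, 42.3, 72.0 and 57.4 CPM at 24 h and 312, 52.9 and 424 CPM at 72 h. The sham group itself was split, with replicate 1 far below the others for all 9 genes. At 24 h Pde10a (-2.94), Mme (-2.41), Rarb (-2.23), Pde1b (-1.40) and Bcl11b (-1.23) were lower, with adjusted p of 0.0208 to 0.0394, beside 7.93% of all genes. Without sham replicate 2 or 3, or without the 24 h replicate 1, no gene was called in IF16, and without the 24 h replicate 2 there were 3. The other stages had backgrounds of 0.00611%, 4.06%, 0.0673% and 0.300% after ischemia alone and at 3, 12 and 72 h. None of the 9 was called there by edgeR or DESeq2, and 0, 2, 1 and 0 had an unadjusted p under 0.05 by edgeR. Of all 16355 genes tested, 354, 4471, 2477 and 2211 had such a p, and DESeq2 called 6, 2214, 472 and 484.

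In AL, Pde10a had 293, 128 and 343 CPM in sham, 71.9, 66.9 and 78.9 CPM after ischemia alone, 362, 259 and 328 CPM at 3 h, 80.2, 112.5 and 70.7 CPM at 12 h, 66.97, 43.9 and 25.8 CPM at 24 h and 61.6, 46.0 and 96.5 CPM at 72 h. Ischemia alone and the last 3 stages lay below the lowest sham library, while the 3 h libraries lay within or above the sham range. The called genes were Pde10a, Pde1b, Rarb, Rxrg and Mme at 12 h (-2.60 for Rxrg to -1.36 for Pde1b), all but Ppp1r1b at 24 h (-3.21 for Rxrg to -0.89 for Foxp1), and all 9 at 72 h (-2.78 for Rgs9 to -0.78 for Bcl11b). The background was 0.480%, 3.00% and 0.675% of all genes at those stages. The 5 calls at 12 h became 0 without the 12 h replicate 1 or 3 or without sham replicate 1 or 3. The 9 calls at 72 h became 4 without sham replicate 1 and 6 without sham replicate 3 or the 72 h replicate 2 or 3. At 24 h 7 or 8 genes were called without any 1 library.

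The low AL libraries after ischemia alone did not give calls by edgeR. Log2 fold changes ran from -2.15 for Rxrg to -0.44 for Bcl11b. All 9 genes reached an unadjusted p under 0.05 by edgeR, as did 551 of all 16452 genes tested. DESeq2 called 3 of the 9 and 14 of all genes, and edgeR called none of the 9 and 0% of all genes lower. At 3 h in AL the values ran from -0.42 to 0.49, with a background of 0.00608%. There edgeR had none of the 9 at an unadjusted p under 0.05, beside 1780 of all 16452 genes. DESeq2 called none of the 9 and 123 of all genes.

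**Figure D3:**
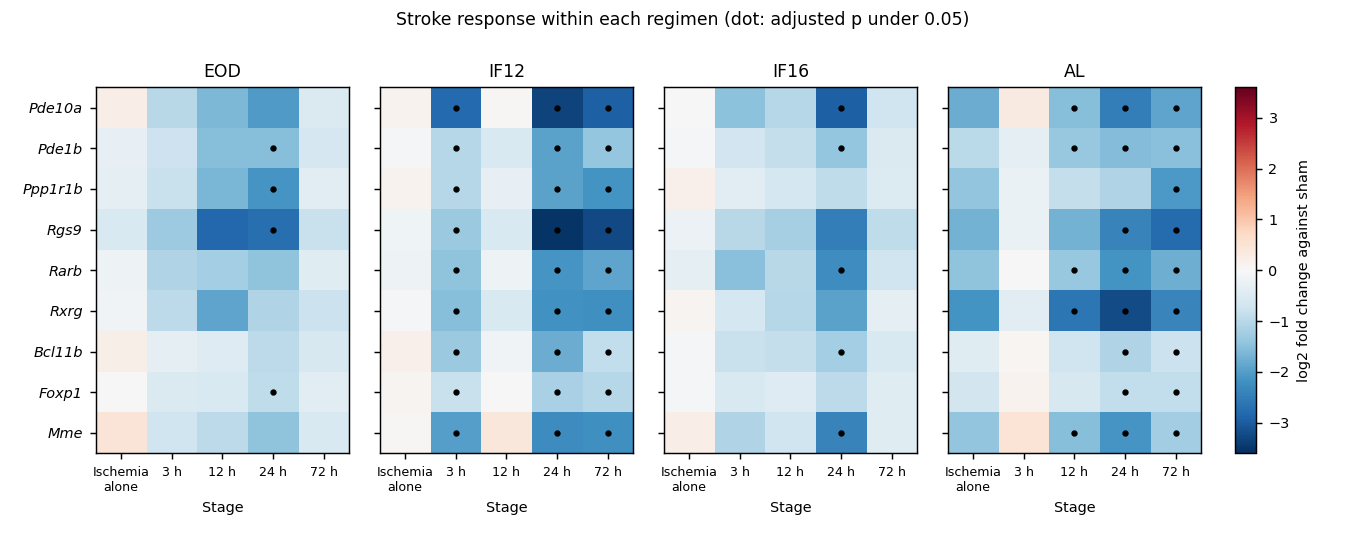
Log2 fold change against the regimen's own sham for the 9 genes (rows) at the 5 stages (columns), in EOD, IF12, IF16 and AL (3 libraries a group, a dot where the edgeR adjusted p is under 0.05). IF12 has dots for all 9 genes at 3, 24 and 72 h, AL has dots for 5, 8 and 9 genes at 12, 24 and 72 h, and EOD and IF16 have them at 24 h only.

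Whether the course over time differed between a fasting regimen and AL was tested with an interaction F test over the 5 stages in a fit of all 72 libraries. Between IF12 and AL it was called for 5 of 9 genes: Mme (adjusted p = 0.00736), Pde10a (0.00821), Foxp1 (0.0146), Bcl11b (0.021) and Rarb (0.0211). The share of all genes called was 10.9%. For Pde10a and Mme the terms farthest from 0 were those of the 3 early stages, in opposite directions. The stroke response of Pde10a in IF12 minus that in AL was 1.95 ± 0.88 after ischemia alone, -3.12 ± 0.90 at 3 h and 1.57 ± 0.88 at 12 h on the log2 scale, and -0.87 ± 0.88 at 24 h and -1.04 ± 0.88 at 72 h. For Mme the 3 early terms were 1.48 ± 0.73, -2.48 ± 0.74 and 1.94 ± 0.73, and for Bcl11b they were 0.65 ± 0.49, -1.40 ± 0.50 and 0.61 ± 0.49. Ppp1r1b, Rgs9, Rxrg and Pde1b had adjusted p of 0.0671 to 0.15. Without the 3 h IF12 replicate 3 the call count became 2.

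The 3 libraries of a group stood together at several of the stages that made this pattern. Mme had 3.85, 3.31 and 3.58 CPM in IF12 at 3 h, against 16.8, 16.6 and 14.4 CPM in AL at 3 h. At 12 h it had 10.4, 24.0 and 22.4 CPM in IF12, against 3.17, 4.85 and 3.78 CPM in AL. The groups did not overlap at either stage, and IF12 was the lower at 3 h and the higher at 12 h. After ischemia alone Mme had 19.9, 5.54 and 19.0 CPM in IF12, against 5.43, 3.57 and 3.69 CPM in AL.

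**Figure D4:**
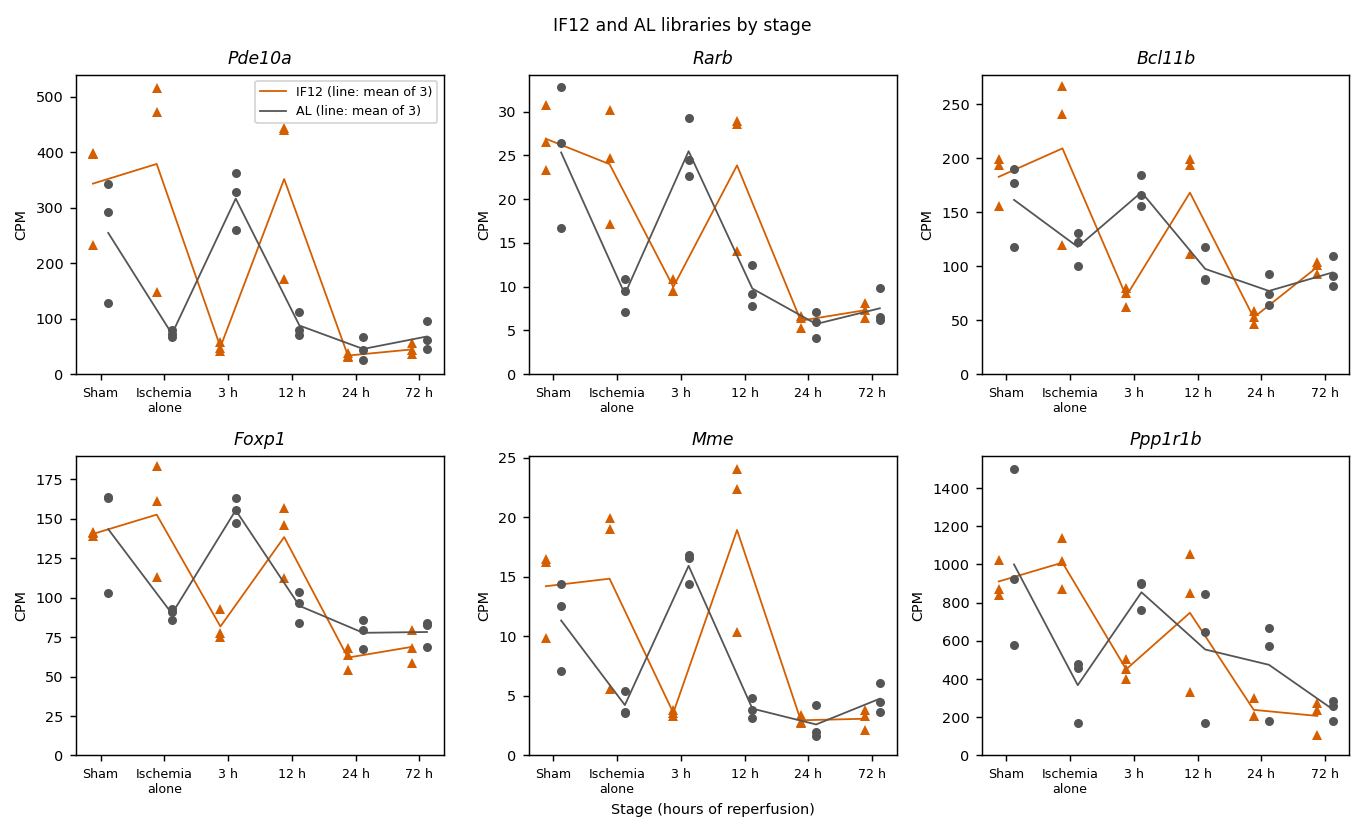
CPM in each IF12 library (triangles) and AL library (circles) from sham to 72 h of reperfusion for the 5 genes called in the interaction test and for Ppp1r1b, with lines through the means of 3 libraries. For Pde10a and Mme, IF12 is below AL at 3 h and above it at 12 h without overlap, and both are low at 24 and 72 h.

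Marker sums of other regions differed between IF12 and AL at some of these stages, and are given here in replicate order. The 14 hippocampal markers summed to 575, 523 and 527 CPM in IF12 at 3 h, against 367, 426 and 436 CPM in AL at 3 h, and to 393, 462 and 404 CPM in IF12 at 12 h, against 451, 654 and 622 CPM in AL at 12 h. After ischemia alone they summed to 434, 424 and 417 CPM in IF12, against 654, 549 and 573 CPM in AL. The 14 thalamic markers summed to 696, 364 and 453 CPM in IF12 at 3 h, against 231, 279 and 298 CPM in AL, and to 254, 565 and 284 CPM in IF12 after ischemia alone, against 711, 532 and 744 CPM in AL. In each of these comparisons the group with the lower striatal genes had the higher median of the marker sum given. The groups overlapped for the hippocampal sums at 12 h and for the thalamic sums after ischemia alone. Other sums did not go this way. At 24 h Pde10a had a median of 32.5 CPM in IF12 and 43.9 CPM in AL, and its groups overlapped. The hippocampal sums at 24 h were also lower in IF12, at 408, 366 and 384.5 CPM, against 551, 469 and 435 CPM in AL. At 3 h the cortical sums had medians of 3261 CPM in IF12 and 3302 CPM in AL. In the interaction test 0 of 14 hippocampal, 1 of 14 thalamic and 4 of 14 cortical markers were called, beside 6 of 23 genes of the dopamine and cyclic AMP list, 2 of 7 direct and 0 of 5 indirect pathway markers. By the same test 10.9% of all genes were called. The part of regional makeup in the difference between IF12 and AL was not tested.

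**Figure D5:**
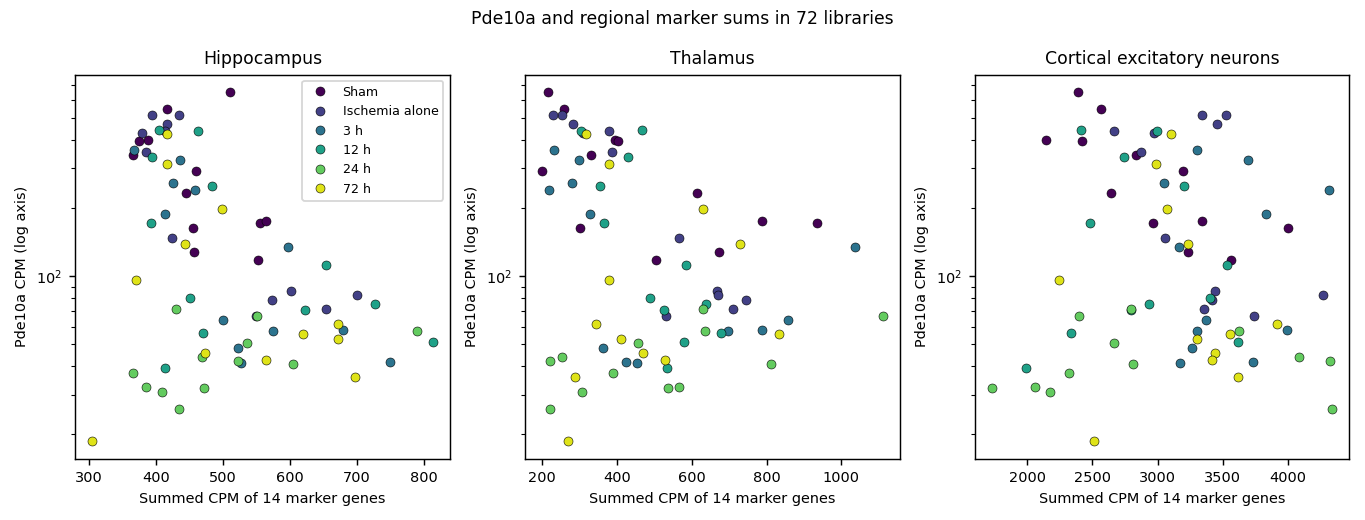
Pde10a CPM on a log axis against the summed CPM of 14 hippocampal, 14 thalamic and 14 cortical marker genes in each of the 72 libraries, coloured by stage. Most libraries with high Pde10a have low hippocampal sums, and the 24 h libraries lie between 25.8 and 72.0 CPM of Pde10a over hippocampal sums from 366 to 790 CPM.

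The interaction with AL was called for none of the 9 genes in EOD or IF16. In EOD 7 of 9 and in IF16 4 of 9 had an unadjusted p under 0.05 by edgeR. Of all 17268 genes, 1262 and 2442 had such a p, and 0.00579% and 0% were called by edgeR. DESeq2 called none of the 9, and 20 and 41 of all genes. That IF12 passed and the others did not does not show that the regimens differ from each other, which was not tested.

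Fasting regimens were also compared with AL within a stage, in fits of 12 libraries. At 3 h, Foxp1 (-0.93), Mme (-1.87) and Rarb (-1.72) were lower in EOD than in AL, with adjusted p of 0.0443 to 0.0496, and Pde10a (-2.69), Mme (-2.15), Rarb (-1.35), Bcl11b (-1.22) and Foxp1 (-0.93) were lower in IF12 than in AL, with adjusted p of 0.0305 to 0.0342. By edgeR, the share of all genes called in either direction was 0.277% in EOD, 8.75% in IF12 and 0% in IF16. In IF16 none of the 9 was called by edgeR or DESeq2. There 3 of the 9 had an unadjusted p under 0.05 by edgeR, beside 591 of all 15878 genes. The fitted log2 fold changes of all 9 genes against AL at 3 h, called or not, were -1.87 to -0.62 in EOD, -2.69 to -0.81 in IF12 and -1.16 to -0.39 in IF16, against the same AL libraries. The 8 calls at 3 h became 0 without AL replicate 1 or 3 and 4 without AL replicate 2. Without EOD replicate 2 or 3 the EOD calls became 0, which left the 5 of IF12. Without any 1 of the IF12 replicates the IF12 calls became 0, which left the 3 of EOD. In these totals the comparison that did not use the left-out library kept its calls from the full fit. The EOD libraries at 3 h had thalamic sums of 1036, 858 and 789 CPM, against 231, 279 and 298 CPM in AL.

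At the other 5 stages edgeR called none of the 9 genes between a fasting regimen and AL. It called 0% of all genes in each of the 15 comparisons, while DESeq2 called up to 2702, in IF16 sham. After ischemia alone all 9 genes were above AL in IF12 (0.75 to 2.37) and IF16 (0.79 to 2.57), each with an unadjusted p under 0.05. DESeq2 called 5 of the 9 in each regimen. Of all 15991 genes tested, 1966 in IF12 and 2885 in IF16 had such a p, and DESeq2 called 155 and 176. Rxrg had 45.6, 30.3 and 42.0 CPM in IF12 and 39.1, 39.8 and 38.1 CPM in IF16, against 4.99, 13.6 and 13.7 CPM in AL, with no overlap. The hippocampal sums at this stage were 394, 414 and 385 CPM in IF16, against 654, 549 and 573 CPM in AL, and the thalamic sums were 230.4, 380 and 387 CPM in IF16, against 711, 532 and 744 CPM in AL. Neither overlapped, and their part in the difference was not tested. Without IF12 replicate 2, edgeR called 8 at this stage. In EOD after ischemia alone 2 of the 9 reached an unadjusted p under 0.05, beside 649 of all genes, and DESeq2 called none of the 9. In sham the counts at such a p were 1 of the 9 in EOD and 0 in IF12 and IF16, with no DESeq2 call. Of all 15981 genes tested in sham, 965, 1818 and 5100 had such a p, and DESeq2 called 29, 22 and 2702.

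At 12 h the counts of the 9 at an unadjusted p under 0.05 by edgeR were 2 in EOD, 5 in IF12 and 3 in IF16. DESeq2 called 2 in IF12 and none in the others. Of all 16242 genes tested, 544, 2149 and 1401 had such a p, and DESeq2 called 1, 164 and 86. At 24 h the counts were 2, 2 and 0 of the 9, beside 1169, 1932 and 425 of all 16129 genes. At 72 h they were 0, 0 and 4, beside 449, 380 and 855 of all 16177. DESeq2 called none of the 9 at either stage, and 3, 123 and 0 of all genes at 24 h. At 24 h the log2 fold changes against AL had medians of -0.16 in EOD, -0.44 in IF12 and 0.25 in IF16. At 72 h all 9 genes were above AL in IF16, at 0.64 to 1.98, where 2 of the 3 IF16 libraries stood near sham levels and replicate 2 did not: Rgs9 had 84.1, 10.7 and 126 CPM in IF16, against 12.2, 17.4 and 27.6 CPM in AL. The hippocampal sums of those IF16 libraries were 416, 671.5 and 417 CPM, against 671, 473 and 371 CPM in AL. The sums overlapped, and their part in the difference was not tested.

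Averaged over the 6 stages, no gene passed the test in any regimen. In IF16 all 9 genes were above AL, from 0.26 ± 0.22 for Ppp1r1b and 0.26 ± 0.10 for Foxp1 to 0.99 ± 0.26 for Pde10a (adjusted p = 0.116). Of the 9, 8 reached an unadjusted p under 0.05 by edgeR, as did 3577 of all 17268 genes tested. DESeq2 called 2 of the 9 and 75 of all genes, and edgeR called 0.00579% of all genes. In EOD all 9 were below AL, from -0.57 to -0.11, with 2 at an unadjusted p under 0.05, and in IF12 they ran from -0.12 to 0.45, with none. In EOD 1279 and in IF12 918 of all 17268 genes had such a p. DESeq2 called none of the 9 there, and 15 and 4 of all genes, while edgeR called 0% of all genes.

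Of the 24 groups ordered by mean level, the lowest was a 24 h group for all 9 genes, in IF12 for Pde10a (33.7 ± 3.46 CPM, SD, n = 3), Rgs9, Bcl11b, Foxp1 and Pde1b, in EOD for Ppp1r1b (155 ± 37.4 CPM) and in AL for Rarb, Rxrg and Mme (2.60 ± 1.40 CPM). The groups that followed differed between genes, and 24 h AL, the lowest for Rarb, Rxrg and Mme, was the 10th lowest for Ppp1r1b. For Pde10a the lowest group was followed by 24 h EOD (41.2 ± 9.19 CPM) and 72 h IF12 (44.7 ± 9.97 CPM), which did not differ beyond their spread. The highest group was IF16 sham for Pde10a (439.9 ± 283 CPM), Rgs9, Rarb, Bcl11b and Foxp1, AL sham for Rxrg and Pde1b (575 ± 192 CPM), IF12 after ischemia alone for Ppp1r1b and IF16 after ischemia alone for Mme (20.0 ± 1.60 CPM). The spread of IF16 sham covered the next groups below it, IF16 and IF12 after ischemia alone, at 437 ± 82.4 and 379 ± 201 CPM of Pde10a.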

How the data were processed

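The data are mRNA sequencing of 72 brain libraries, and the deposited tables hold raw counts per gene and, beside them, FPKM per gene. The authors used CASAVA, TopHat2 and DESeq2 with GRCm38/mm10, per the submitters' processing notes, with annotation, read counting and strandedness not given in the sources used here. Per the labels' protocols, the RNA integrity number exceeded 7. The deposited FPKM equalled count per length and per library total (largest relative deviation 1.8e-07) and served only to derive gene lengths. The FPKM values given above are the scaled CPM divided by these lengths, not the deposited values. Symbols and coordinates came from GENCODE M21, which named 34490 of 35275 identifiers. The deposited counts were tested in R 4.3.3 with edgeR 4.0.16 (trimmed mean of M values scaling, factors 0.912 to 1.094, filterByExpr, quasi-likelihood F test, Benjamini-Hochberg adjustment over all genes tested in a comparison, calls at 0.05). DESeq2 1.42.0, other scaling, no filter, other sets of libraries, the replicate number as a block and leaving out each library were alternatives. The procedure was tested on data simulated with 1 fixed spread for all genes. It recovered 100% of 2-fold changes with 72 libraries, 60.4% with 18 and 59.8% with 12. The spread of the 9 genes themselves was not simulated. Likeness used log2 CPM with a prior count of 2 and genes of at least 1 CPM. The 9 genes and all lists were chosen with earlier results of these data known. From each list, up to 3 called genes with the largest change at 24 h were named, and the 10 genes most like the 9. Samples were grouped by their titles. One gene that met the likeness rule is not reported here.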

Additional observations from a re-analysis of the deposited data

Results flagged for a closer look

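The stroke response over the 5 stages differed between IF12 and AL by an interaction F test of edgeR across all genes for Pde10a (adjusted p = 0.00821), Rarb (0.0211), Bcl11b (0.021), Foxp1 (0.0146) and Mme (0.00736). At 3 h the response of Pde10a in IF12 minus that in AL was -3.12 ± 0.90 on the log2 scale, and those of Rarb and Foxp1 were -1.44 ± 0.62 and -0.90 ± 0.36. After ischemia alone the 3 terms were 1.95 ± 0.88, 1.30 ± 0.62 and 0.79 ± 0.36. When each of the 36 IF12 and AL libraries was left out in turn, Pde10a and Mme kept an adjusted p of at most 0.0356, Foxp1 lost its call in 1 case, and Bcl11b and Rarb in 2 each.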

How the results depend on the processing

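With regimens averaged, the number of the 9 genes called against sham was 0, 7, 9, 9 and 9 after ischemia alone and at 3, 12, 24 and 72 h, and leaving out each library gave 0 to 0, 6 to 8, 7 to 9, 9 to 9 and 9 to 9. For single genes in these comparisons, ranges such as -0.09 to 0.04 for Bcl11b after ischemia alone were obtained, and the direction changed only for Bcl11b after ischemia alone, at 0.01 without AL sham replicate 1, 0.01 without EOD ischemia-alone replicate 1, 0.04 without IF12 ischemia-alone replicate 2 and 0.03 without IF16 sham replicate 3, with no call in any of them. In the counts that follow, a comparison that did not use the left-out library kept its calls from the full fit. Within regimens, leaving out each library gave 0 to 5 calls in EOD, 25 to 27 in IF12, 0 to 7 in IF16 and 11 to 23 in AL. Between fasting regimens and AL it gave 0 to 8 after ischemia alone, 0 to 10 at 3 h and 0 to 0 in sham and at 12, 24 and 72 h. The interaction count ran from 2 to 7 and the count averaged over stages from 0 to 2, the 2 arising without IF16 24 h replicate 1 or IF16 12 h replicate 2. With DESeq2 the count was 9 in EOD (4 by edgeR), 10 between fasting and AL after ischemia alone (0), 2 at 12 h (0), 8 for the interaction (5) and 2 averaged over stages (0). With all 72 libraries in 1 fit it was 8 in EOD, 8 in IF16 (5) and 5 between fasting and AL at 3 h (8). A fit of only the regimen and AL gave 8 for the interaction, and no filter on low counts gave 1 at 12 h. With the replicate number as a block, EOD had 2 calls and fasting against AL at 3 h had 0, and the other counts stayed within 1.5 times. Deviations from group means had a mean correlation of -0.008 over 828 same-numbered pairs of libraries and 0.005 over other-numbered pairs. Of the same-numbered pairs 265 were over 0.1, a count not made for the others. The labels tie the numbers to no animal or day, and whether they pair any samples is not settled by these values. In the comparisons averaged over regimens, leaving out 1 library ended a single-gene call 36 times and added one 3 times. The causes of these shifts were not tested. Scaling by relative log expression moved none of the counts beyond 1.5 times.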
